A study of Homo sapiens with 8 samples.

Results

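Peaks of N6-methyladenosine (m6A) were examined in short protein-coding genes of HEK293T cells, a line derived from human embryonic kidney. The cells were parental (wild type) or METTL3-/-, which lack the catalytic subunit of the main m6A methyltransferase. The RNA came from the chromatin fraction after removal of DNA and rRNA, and an m6A antibody was used to enrich one portion (IP) while another served as input. There were 2 IP and 2 input libraries per genotype, but each genotype is represented here by 1 peak list without values per replicate. Whether the knockout line is 1 clone, and which part of METTL3 was removed, are not given in the sources used here. No spread between replicates could be computed, so every difference between wild type and knockout below is a description of 2 lists, with no test.

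A peak was taken when it overlapped, by at least 1 bp and on either strand, the body of a RefSeq protein-coding gene shorter than 10 kb (GRCh38) and touched no protein-coding gene of 10 kb or more. This gave 1116 of 53021 peaks, namely 655 of 29084 in wild type (2.25%) and 461 of 23937 in the knockout (1.93%). They lay in 791 of 5595 such genes (14.1%). Of the 5595, 524 lie wholly inside a longer coding gene and could hold no selected peak. Another 114 wild-type and 84 knockout peaks over a short gene were left out because they also touched a longer one. At the limit, PSTK (9990 bp, 1 wild-type and 0 knockout peaks) and GEMIN4 (9990 bp, 1 and 1) were the last genes with a peak inside. PLEKHF1 (10017 bp, 1 and 0) and ERP29 (10024 bp, 0 and 1) were the first outside.

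In mature messenger RNA, m6A is known to gather around stop codons and in long internal exons, most often at an adenosine within GGAC. The writer complex acts on nascent RNA at chromatin, so chromatin-bound RNA also carries m6A in introns. Short genes hold less intron per gene, and several of those met here, such as SOX2, SOX4 and JUN, are known to have a single exon. Exon bounds were not used here, so peaks were placed by gene body alone.

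The only bases given for these peaks were windows around annotated gene starts, from 250 bp before to 50 bp after the start, in RefSeq's GRCh38.p14 sequence. In wild type 36 selected peaks and in the knockout 22 overlapped a start window of their own gene. The motif GGACT was searched on the strand of the peak alone, within the part shared by peak and window. It was found under 8 of the 36 wild-type peaks (22.2%) and 6 of the 22 knockout peaks (27.3%). The same slice of all 35116 windows held it in a mean of 11.6% and 12.01%. Over whole 300-bp windows, 25.3% held GGACT on the strand of the gene. The following 7 stretches of 30 bases, shown as examples, hold one match each, with GGACT in capitals, written 5′ to 3′ on the strand of the peak. The first 3 lie under peaks that both genotypes had, the next 2 under peaks of wild type alone and the last 2 under peaks of the knockout alone.
FLAD1, chr1:154983306-154983335, plus strand: taggtgcaaggcgGGACTttaagtacggaa
DMAC2, chr19:41439644-41439673, minus strand: gagaggaggcagGGACTtggctgagagtat
SMIM32, chr5:136193197-136193226, plus strand: cgggggaggggcgGGACTggcggcggctgc
IRF9, chr14:24161235-24161264, plus strand: aaacttagggtggGGACTgtagaaaggggc
SNRPE, chr1:203861721-203861750, plus strand: acgcaggatgtcaGGACTaggaggttcggg
TNFRSF6B, chr20:63696500-63696529, plus strand: cagaaccacccttGGACTgagctctgggga
ZNF785, chr16:30585688-30585717, plus strand: acaagtccgtaagGGACTcctgcccttaac

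The peaks at SMIM32 and ZNF785 lay on the strand opposite to the gene, and the other 5 on its own strand. From the start that defines each window, the matches lay between position -137 bp in TNFRSF6B and -6 bp in ZNF785. For DMAC2 and SNRPE that start is an internal one, and the match lies inside the gene body. Summits lay at some distance from the match. In wild type the match lay 25 bp from the summit in SMIM32, 57 bp in IRF9, 70 bp in DMAC2, 87 bp in SNRPE and 158 bp in FLAD1. A match is a run of letters and no evidence of a methylated base.

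The fold over input is the ratio of IP to local input at the peak summit, computed by the caller the authors used, and the 2 lists need not share one scale. FLAD1, which makes the flavin cofactor FAD, had folds of 13.8 (wild type) and 3.39 (knockout) at this place. For DMAC2, an assembly factor of the respiratory chain, the folds were 8.40 and 4.18. SMIM32, a small membrane protein gene, had 7.65 and 4.98. The knockout fold was the lower one for these 3 genes, which were picked for the motif. Of the other 3 genes with a shared peak in a start window, it was lower in NRGN (12.3 and 4.51) and POU3F2 and higher in TOMM40L (4.04 and 5.12).

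Knockout peaks were fewer in short genes, at 70.4 for every 100 in wild type. Over all peaks the figure was 82.3, and in coding genes of 10 kb or more it was 80.7. Where the strand of the gene was known, that strand held 439 wild-type and 296 knockout peaks (67.4 per 100). On the opposite strand the numbers were 71 and 69 (97.2 per 100). In coding genes of 10 kb or more of known strand, 93.7% of wild-type and 93.3% of knockout peaks lay on the gene's strand. The counts there were 16744 of 17867 and 13480 of 14454. The share on the strand of the gene was thus lower in the knockout in longer genes too, by less. Among peaks with a −log10 q of 20 or more, the most significant ones, short genes had 107 and 62 (57.9 per 100), against 76.5 per 100 over all peaks. The depth of the libraries was not recovered here, and its part in these counts was not tested. Per Mb of gene body outside longer genes, short genes held 27.7 wild-type and 19.5 knockout peaks, against 17.8 and 14.3 per Mb in coding genes of 10 kb or more.

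A partner was a peak of the other list that touched the same bases on the same strand by 1 bp or more. Of the 655 wild-type peaks 140 had one (21.4%, 95% Clopper-Pearson interval 18.3 to 24.7), against 20.4% of all wild-type peaks. Of the 461 knockout peaks 140 had one (30.4%, 26.2 to 34.8), against 24.8% of all knockout peaks. In wild type the share was thus near the background, and in the knockout the interval lay above it. Since 140 peaks had a partner in each list, the higher knockout share restates the smaller number of knockout peaks. Intervals cover counting error only. In coding genes of 10 kb or more the shares were 21.3% and 26.4%, and each lies within the interval for short genes.

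The most significant peaks were shared most often. With a −log10 q of 20 or more, 56 of 107 wild-type peaks were shared (52.3%, 42.5 to 62.1), beside 49.5% of all wild-type peaks of that class. From 5 to 10 it was 31 of 244 (12.7%, 8.80 to 17.5) beside 11.9%, and under 5 it was 7 of 72 (9.72%, 3.999 to 19.01) beside 12.1%. In the knockout the highest class had 44 of 62 shared (71.0%, 58.1 to 81.8) beside 57.2%, and the class from 5 to 10 had 29 of 182 (15.9%, 10.9 to 22.1) beside 16.0%. Under 5 it was 11 of 60 (18.3%, 9.52 to 30.4) beside 12.1%, so the lowest classes had no order. The value for all knockout peaks of the highest class lay just below the interval.

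**Figure D1:**
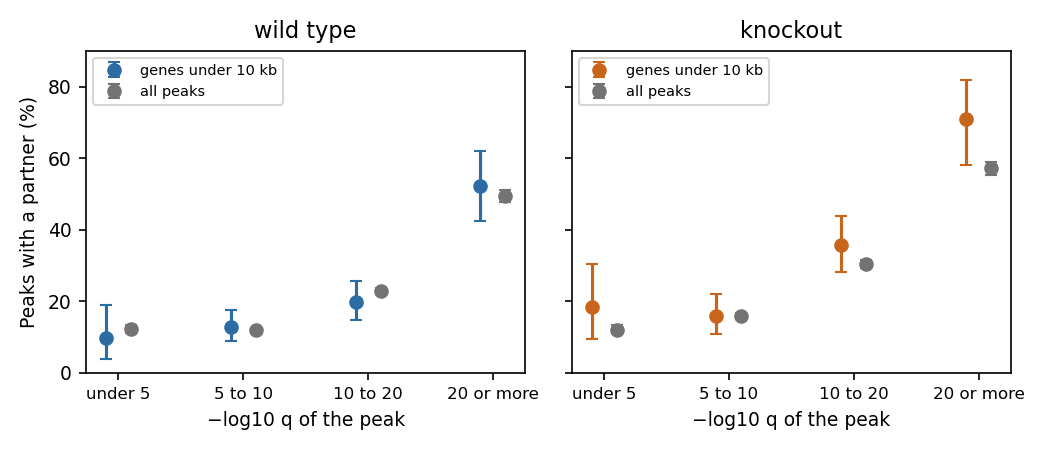
Percentage of peaks with a partner in the other list (vertical axis) by class of the deposited −log10 q (horizontal axis), for peaks in coding genes under 10 kb (coloured) and all peaks (grey), with 95% Clopper-Pearson intervals. Shares are highest in the top class, at 52.3% in wild type and 71.0% in the knockout, beside 49.5% and 57.2% over all peaks.

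Shared peaks were wider than the others, with a median width of 279 bp against 210 bp in wild type and 264 bp against 207 bp in the knockout. Their median fold was lower, at 5.76 against 6.74 in wild type and 6.08 against 6.67 in the knockout. Their median −log10 q was higher, at 16.1 against 9.31 and 13.99 against 8.29. Over the selected peaks as a whole, the median fold was 6.57 in wild type (range 1.79 to 28.1) and 6.57 in the knockout (1.74 to 19.2). All peaks had medians of 7.29 and 7.06, so short genes had the lower median fold in each list.

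The shared peaks formed 141 pairs with both peaks in short genes. The fold was lower in the knockout in 77 of them (54.6%, 46.0 to 63.0), and over all shared pairs in 49.1%. Median folds of the pairs were 5.74 (wild type) and 6.04 (knockout). Spearman's rho between the folds of a pair was 0.42 over the 141 pairs, given as a description, since neighbouring peaks share libraries and scaling.

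**Figure D2:**
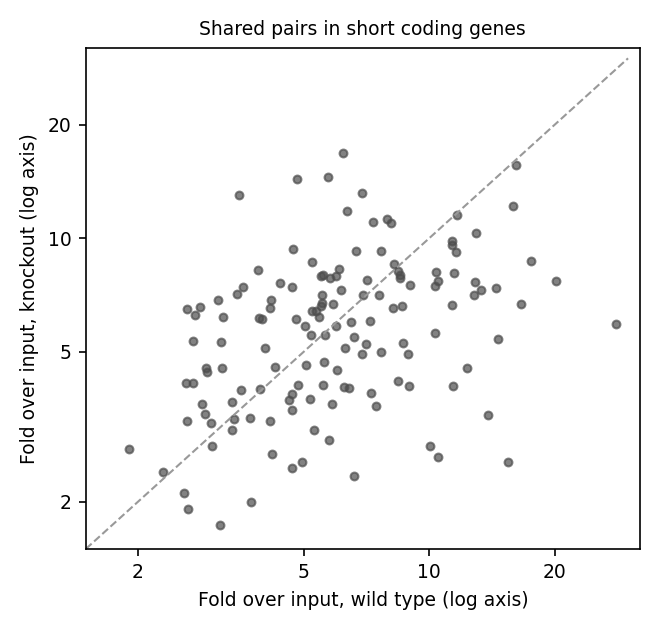
Fold over input in wild type (horizontal, log axis) and in the knockout (vertical, log axis) for the 141 shared pairs in coding genes under 10 kb, 1 point per pair, with the dashed line at equal folds. Points lie on both sides of the line, 77 of them below it.

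Of the shared peaks in exactly 1 coding gene, PBDC1 held the highest wild-type fold, 28.1 against 5.92 in the knockout, at chrX:76177527-76177816. MRPL32, a protein of the mitochondrial ribosome, had 20.1 and 7.68 at chr7:42937297-42937523, near the 3′ end of the gene. POU3F2, a neural POU-domain transcription factor, had 17.5 and 8.70 in a peak that spanned its start, at chr6:98834501-98834790. These members were picked for a high wild-type fold, so their lower knockout folds are no finding.

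The receptor gene LTB4R, for leukotriene B4, followed with 16.6 and 6.71. ZNF358, a zinc finger gene, had nearly equal folds of 16.1 and 15.7. TFPT, a subunit of the INO80 chromatin remodeller, had 15.9 and 12.2 on the strand opposite to the gene. ITPRIPL2 had 15.4 and 2.54, SLC35C1, the Golgi transporter of GDP-fucose, 14.6 and 5.41, and the telomere protein gene TERF2IP 14.5 and 7.36. FLAD1, given above, completed the 10 genes.

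Among wild-type peaks without a partner, PIANP had the highest fold, 20.7, at chr12:6694359-6694742 and opposite to the gene. NDUFB2, a subunit of respiratory complex I, followed with 19.4 at chr7:140698379-140698738. Its knockout peak, with a fold of 6.41, lay at the other end of the gene and on the other strand. The Wnt receptor gene FZD7 had 17.9 at chr2:202036201-202036645. Both PIANP and NDUFB2 thus had a knockout peak elsewhere in the gene, and FZD7 had none.

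TLNRD1, a talin rod domain protein gene, had an unpartnered wild-type peak of 15.5. UBXN1, a cofactor of the p97 ATPase, had 15.3, and BBLN 15.01. NUDT10, a Nudix hydrolase gene, had 14.99, and the Mediator subunit gene MED11 had 14.8. POP7, which encodes a protein of ribonucleases P and MRP, had 14.8, and the fatty acid elongase gene ELOVL1 13.8. Of these 7 genes TLNRD1 alone had a knockout peak.

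Among knockout peaks without a partner the highest fold, 19.2, was in RPP25, another protein gene of ribonucleases P and MRP, at chr15:74955569-74955983. ALG10, a glucosyltransferase of N-glycan synthesis with a close copy that leaves its reads uncertain, had 17.8. FAM32A had 16.8 and the T-box transcription factor gene TBX2 had 15.7. KRT10, a keratin gene, had 13.4, on the opposite strand and inside the bounds of the antisense gene KRT10-AS1. KBTBD7 and C3orf62 had 13.0 each. NFKBIB, an inhibitor of NF-kappa-B, had 12.9, SDHAF1, an assembly factor of respiratory complex II, 12.8, and ANKRD23 12.6. ALG10, TBX2 and NFKBIB had 1 wild-type peak elsewhere in the gene, and the other 7 had none.

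Most short genes with a peak had just 1, namely 471 of the 561 genes with a wild-type peak and 355 of the 411 with a knockout peak. At least 3 wild-type peaks were found in 16 genes and at least 3 knockout peaks in 3. RBM15 held the most over both lists, with 2 wild-type and 4 knockout peaks. It encodes an RNA-binding adaptor of the m6A writer complex. Its 2 wild-type peaks, with folds of 2.63 and 5.04, were both met in the knockout, where the folds were 1.92 and 5.83. The other knockout peaks of RBM15 lay nearer its 5′ end, at chr1:110339435-110339634 with a fold of 6.65 and at chr1:110340183-110340503 with 2.63.

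SOX4, a developmental transcription factor gene, had 3 wild-type and 2 knockout peaks. At its first peak, chr6:21593941-21594168, the folds were 5.87 in wild type and 6.69 in the knockout. At the second they were 3.12 and 6.88. The third, at chr6:21596582-21596903, had the highest fold of the gene (13.5) and no knockout partner. TSPYL2, of the TSPY family of nucleosome assembly proteins, showed the same layout of 2 shared peaks and a last one in wild type alone. Its folds were 6.90 and 4.92 at the first, 6.35 and 11.8 at the second and 6.34 at the third.

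SLITRK5, a neuronal transmembrane protein gene, and CCDC8, of the 3M complex, likewise had 3 wild-type and 2 knockout peaks with 2 shared, but there the unshared peak was the first from the 5′ end. PILRB, an immune-type receptor gene with 3 and 2 peaks, shared 1. TLNRD1, SLC35C1 and the exocyst subunit gene EXOC8 had 2 and 2 with 1 shared each. ZNF497 had 3 wild-type peaks and 1 knockout peak and none shared, and its knockout peak crossed the 3′ end on the opposite strand.

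**Figure D3:**
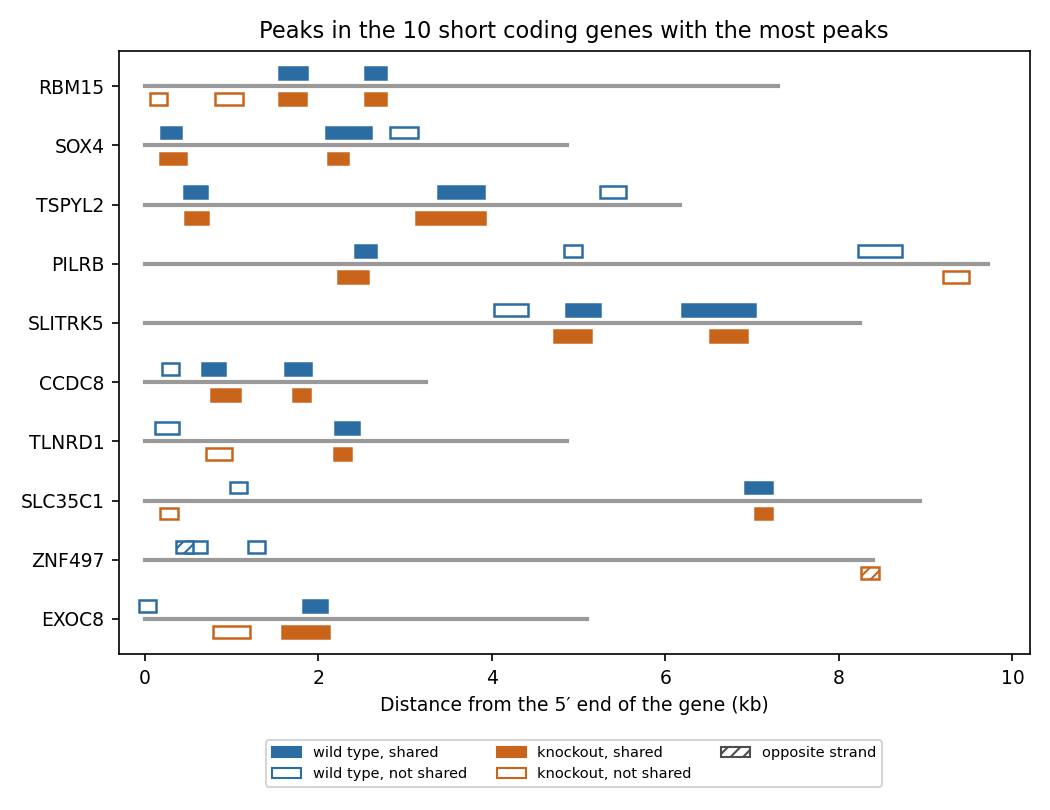
Peaks (boxes, to scale) along the 10 coding genes under 10 kb with the most peaks, by distance from the 5′ end in kb (for PILRB, whose strand was not in the table, the upstream end on its peaks' strand), wild type above and knockout below each grey gene body. Filled boxes have a partner in the other list, open ones have none, and hatched ones lie on the strand opposite to the gene; RBM15 has 4 knockout peaks, and SOX4 and TSPYL2 each have 2 shared peaks followed by 1 in wild type alone.

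By gene, 181 short genes had selected peaks in both lists, 380 in wild type alone and 230 in the knockout alone. Here and for each named short gene only selected peaks were counted, so a peak that also touched a longer gene was left out. SPIN2B, for instance, was counted in the knockout alone, although its knockout peak had a wild-type partner. Over coding genes of any length, a knockout peak was missing in 32.8% of those that wild type marked, and the reverse held for 23.6%. The share without a peak in the other list was lower among genes with more peaks. Of short genes with exactly 1 wild-type peak, 70.9% had no knockout peak, beside 48.9% of the 2854 longer genes with exactly 1. These shares were not counted alike. Every peak over a longer gene was taken, but only selected peaks in short genes, which can raise the share of short genes without one. With 2 peaks the values were 54.1% and 31.1%. For 1 knockout peak they were 58.0% and 34.9%. Longer genes also had a wild-type or knockout peak more often, in 50.9% and 45.4%, and the part of gene length was not tested. Of the 181 genes in both lists, 135 had a shared peak and 46 had peaks at different places, 5 of them on no common strand.

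Peak-bearing short genes were longer than short genes as a whole, with a median of 6043 bp against 4395 bp over all 5595. A wild-type peak was found in 2.52% of genes under 2 kb, 7.65% of those from 2 to 5 kb and 14.6% of those from 5 to 10 kb. The knockout shares were 1.30%, 6.23% and 10.7%. The share of peaks with a partner was 19.4% (7.45 to 37.5), 26.7% (20.1 to 34.1) and 19.3% (15.8 to 23.3) of wild-type peaks in the 3 classes. In the knockout it was lower in each longer class, at 43.8% (19.8 to 70.1), 33.8% (25.8 to 42.7) and 27.8% (22.8 to 33.2). The intervals of the classes overlapped in both lists.

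The strand of the gene was given for 4270 of the 5595 short genes (76.3%). Of the peaks in exactly 1 short gene of known strand, 439 of 510 in wild type lay on the strand of the gene (86.1%, 82.8 to 89.0) and 296 of 365 in the knockout (81.1%, 76.7 to 84.98). In coding genes of 10 kb or more the shares were 93.7% and 93.3%, above both intervals. On the genome's plus strand lay 55.7% and 55.1% of the selected peaks, beside 53.3% and 55.5% of all peaks.

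Along the gene, peaks on its strand were spread with little order. The gene body was divided into 5 equal bins from the 5′ end to the 3′ end, and each peak was placed by its summit. In wild type the bins held 19.8%, 18.0%, 19.6%, 20.05% and 21.2% of 439 peaks. In the knockout they held 21.3%, 18.2%, 22.0%, 19.9% and 17.2% of 296 peaks. A few summits lay outside the gene bounds. The bin at the 3′ end thus had 93 wild-type peaks (interval 17.5 to 25.3%) and 51 knockout peaks (13.1 to 22.0%), and the intervals overlapped. In longer genes it held 20.4% and 21.2%. Read on the strand of the peak, for all peaks in exactly 1 short gene, the first bin held 20.1% and 22.6% and the last 20.3% and 16.8%.

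Peaks opposite to the gene had their largest number in the bin at its 3′ end in both lists. That bin held 20 of 71 in wild type (28.2%, 18.1 to 40.1) and 24 of 69 in the knockout (34.8%, 23.7 to 47.2). The bin at the 5′ end held 11 (15.5%) and 9 (13.0%). The wild-type interval of the 3′ bin includes the share that gene-strand peaks had there, and the knockout interval lies above it. Another gene of the peak's own strand covered 7 of the 71 wild-type and 8 of the 69 knockout peaks. A further 24 and 19 lay within 5 kb past the end of such a gene, and 40 and 42 met neither condition. A neighbour of unknown strand could not be counted, so the 40 and 42 may be too high. Their median folds were 7.27 and 6.73, beside 6.47 and 6.38 for peaks on the strand of the gene.

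**Figure D4:**
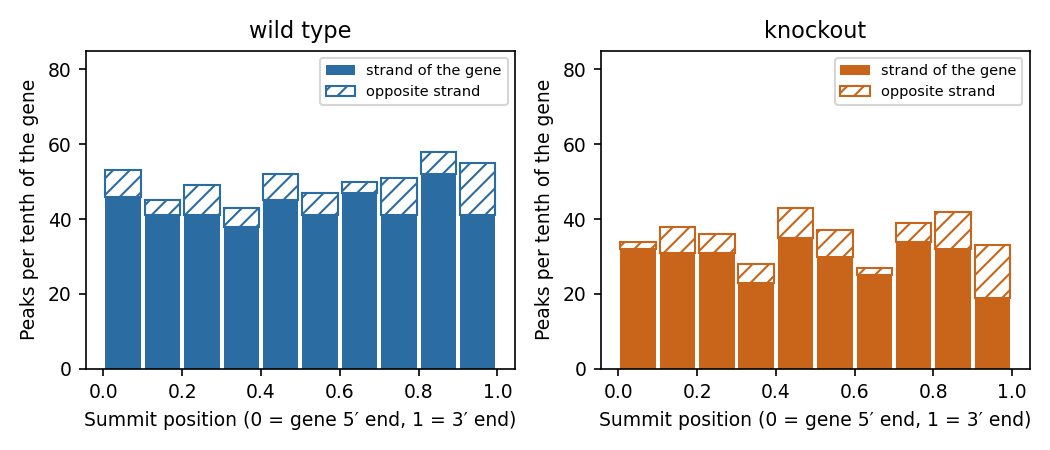
Number of peaks (vertical axis) in 10 equal bins of the gene body by the summit (horizontal axis, from 0 at the 5′ end to 1 at the 3′ end), for peaks in exactly 1 coding gene under 10 kb of known strand, wild type left and knockout right. Solid bars are peaks on the strand of the gene, which are spread with little order. In the knockout they run from 19 in the last bin to 35 in the fifth. Hatched bars are opposite peaks, of which 20 in wild type and 24 in the knockout lie in the last 2 bins.

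Short genes were then grouped by function. The share of all short genes with a peak in either list, 14.1%, is the reference for the shares below. It is not matched for gene length. The wild-type share ran from 2.52% of genes under 2 kb to 14.6% of those from 5 to 10 kb. The part of length in the group shares was not tested. Of all 791 short genes with a peak, 380 had it in wild type alone, 181 in both lists and 230 in the knockout alone. Zinc finger genes, most of which encode DNA-binding repressors, had peaks in 38 of 81 (46.9%), with 16 in wild type alone, 13 in both and 9 in the knockout alone. ZSCAN9 had a shared peak with a fold of 4.81 in wild type and 14.3 in the knockout. ZNF222 had a fold of 13.1 in wild type and no knockout peak. The symbol pattern also took in ZFP36L1 and ZFP36L2, which encode RNA-binding proteins.

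Homeobox, SOX and FOX transcription factor genes had peaks in 34 of 133 (25.6%), 11 in wild type alone, 13 in both and 10 in the knockout alone. SOX2, a pluripotency and neural factor that lies inside the long noncoding gene SOX2-OT, had a wild-type peak across its start with a fold of 13.5 and no partner. Its other peak was shared, with 6.90 in wild type and 13.2 in the knockout. HOXD9, of the HOXD cluster, had 13.3 and 7.27 at 1 shared peak. Peaks in both lists were also found in HOXA13, HOXB9, HOXD10, HOXD11, SOX9, SOX12, FOXC1, FOXF2 and PITX1.

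Early-response genes, which are switched on fast by growth signals or stress, had peaks in 15 of 43 (34.9%). JUN, ATF4, DDIT3, KLF6, BTG1 and ZFP36L2 had them in both lists. DDIT3, a stress-induced transcription factor gene, had a shared peak with 7.94 in wild type and 11.2 in the knockout. JUN had 4.15 and 3.28 and ATF4 2.89 and 3.43 at shared peaks. KLF10, ID2, CCN2 and MYC had wild-type peaks alone, and PPP1R15A, ZFP36L1, HES1, DUSP1 and BTG2 knockout peaks alone.

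Heat-shock protein genes had peaks in 6 of 26 (23.1%), with 0 in wild type alone. With 6 genes this split is too small to be read as a trait of the group. HSPA1A and HSPA1B, near-identical copies whose reads cannot be told apart with certainty, had 2 and 3 wild-type peaks and 1 knockout peak each, which was shared. HSP90AB1, the constitutive cytosolic HSP90, had a shared peak with 2.71 in wild type and 5.32 in the knockout and a second knockout peak on the opposite strand. DNAJC14 was also in both lists, and DNAJC28 and HSPA5 were in the knockout alone.

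Nuclear genes for mitochondrial proteins with a peak in 1 list had it more often in wild type, as did short genes as a whole. Nuclear oxidative phosphorylation genes had peaks in 10 of 47 (21.3%), with 7 in wild type alone, 2 in both and 1 in the knockout alone. Of their 11 wild-type peaks 0 was shared, beside 140 of 655 (21.4%) of all selected wild-type peaks. With 11 peaks this is too small a count to be read as a trait of the group. COX20 had 2 wild-type peaks of 9.66 and 7.50 and a knockout peak of 6.94 between them. Mitochondrial ribosomal proteins had 10 of 41, again 7, 2 and 1. MRPL33 had a fold of 10.7 and MRPL58 one of 8.89 in wild type alone. Among the 13 genes of mitochondrial DNA, CYTB, ND4 and ND4L had wild-type peaks alone and ND5 and ND6 both. Their folds were low, from 1.79 to 3.14 in wild type, and ND4 with ND4L and ND5 with ND6 share a peak.

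Cytosolic ribosomal protein genes had peaks in 8 of 71 (11.3%). None of these 8 genes had them in both lists, beside 181 of 791 over all short genes with a peak, and 8 is a small number. RPS27A, RPS21, RPL34, RPS6 and RPS18 had wild-type peaks, and RPL10, RPL37 and RPL27A knockout peaks. Those of RPS21 (6.90) and RPL10 (8.38) lay opposite to the gene. Core and linker histone genes, whose messages end without a poly(A) tail in most cases, had peaks in 2 of 76. H1-4 had a shared peak with 2.58 and 2.12, and H1-10 a wild-type peak of 2.76. Actin and tubulin genes had 2 of 15, protocadherins 1 of 18 and G protein-coupled receptor genes 7 of 88, among them P2RY11 with a shared peak of 5.77 and 7.84 that also lies in its readthrough gene with PPAN.

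Olfactory receptor and keratin genes, typical of other cell types, held few peaks. Olfactory receptor genes had them in 5 of 317 (1.58%), with folds up to 10.7 in OR2AG2. Keratin and keratin-associated genes had them in 1 of 136 (0.735%). Of 8 neuronal genes NEFL, the light neurofilament, alone had them (12.5%, beside 14.1% of all short genes). Its shared peak had folds of 11.6 and 9.18. HEK293 cells are known to express neurofilament genes.

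**Figure D5:**
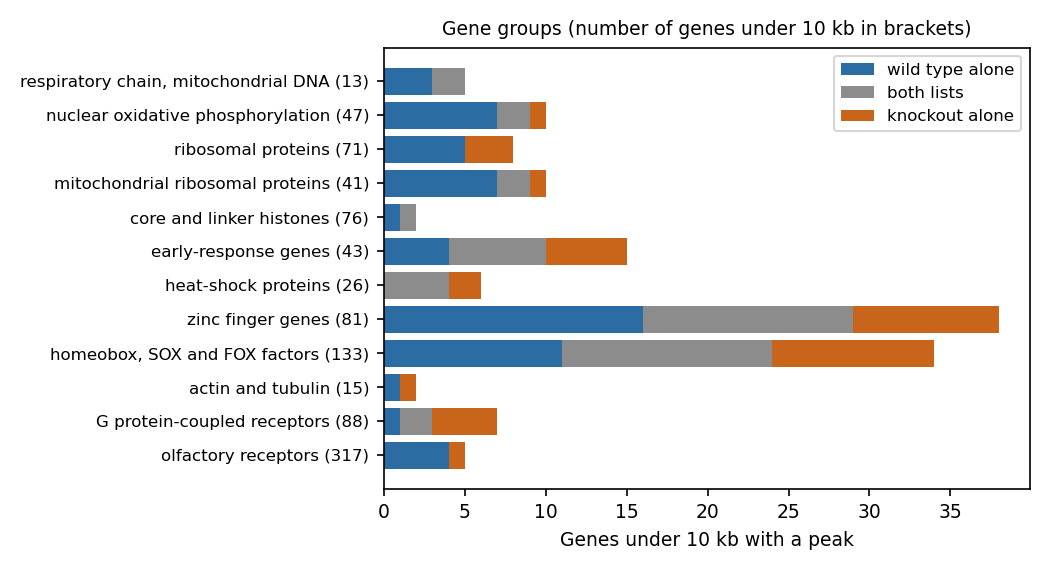
Number of coding genes under 10 kb with a peak (horizontal axis) in each gene group (vertical axis, with the number of genes under 10 kb in the group in brackets), split into wild type alone, both lists and knockout alone; groups with fewer than 2 such genes are not drawn. Zinc finger genes have the most, 38 of 81. Heat-shock genes have 0 in wild type alone, out of 6 with a peak. Of all 791 short genes with a peak, 380 had it in wild type alone, 181 in both lists and 230 in the knockout alone.

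The selected peaks also differed from all peaks in where they lay in the genome. Chromosome 19, which is dense in short genes, held 10.1% of selected wild-type peaks (7.88 to 12.6) beside 2.92% of all, and 13.2% of selected knockout peaks (10.3 to 16.7) beside 3.53%. It was not alone in this. In wild type chromosomes 17 and 11 each held 7.94%, beside 3.91% and 4.13% of all, while chromosome X held 3.36% beside 4.21%. The selection by gene length bears on these shares, and the share of short genes on each chromosome is not given here. Long noncoding gene bodies overlapped 9.16% and 8.03% of the selected peaks, beside 12.3% and 11.98% of all peaks. All peaks include those outside coding genes. For peaks in coding genes of 10 kb or more the shares were lower than in short genes, at 6.66% and 6.54%.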

How the data were processed

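Per the submitters' processing notes, the authors used MACS2 2.2.7.1, SAMtools 1.15.1 and HISAT2 2.2.1 with the hg38 build; settings are not listed there. The values come from 2 deposited peak lists, 1 per genotype. Per the peak names, strands were called separately. The sources do not say whether replicates were pooled before calling. The authors' fold is a linear ratio, and the deposited −log10 q-value grades each peak. The deposited score was left unused, and read depth is unknown here.

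Genes, bounds and start windows came from RefSeq tables of GRCh38.p14. The gene table also lists 171 coding genes of scaffolds under a chromosome's name, recognised by a break in its order of starts, and these were left out. Exons were not used here. Selection, overlap and intervals were computed in Python 3.11.15 with numpy 2.4.6, pandas 2.3.3 and SciPy 1.17.1, tested on simulated intervals, and plotted with matplotlib 3.10.9. Start positions were made 1-based. The members and gene lists were chosen with earlier results of these data known. Named, by fold and 1 per gene, are 10 peaks found in wild type alone, 10 in the knockout alone and 10 that both lists hold, each in exactly 1 gene, the 10 genes with most peaks (ties by fold), and up to 4 genes by fold of each of 16 lists. The result of 1 list is not reported here. Other genes, including those printed with a sequence or as list members, were named after their values were seen. Shares were not tested, because peaks are not replicates.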

Additional observations from a re-analysis of the deposited data

How the results depend on the processing

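No paired analysis was possible because the lists hold no values per replicate, and for the same reason no replicate could be left out. Of 93 values under alternatives, over 13 results, 78 stayed within the interval of the main share or within 1.5 times the main count. With reciprocal overlap of at least 50%, 17.9% of wild-type and 25.6% of knockout peaks were shared. The share over all peaks was not computed with this overlap, so the 20.4% and 24.8% found with 1 bp are no background for these values. With a limit of 5 kb on gene length and overlap of 1 bp, the shares were 25.6% and 35.4%. By construction fewer genes remained, 126 in wild type alone, 80 in the knockout alone and 55 in both. With only peaks on the strand of their gene, a choice added after seeing the data, the gene counts were 256, 145 and 108. Equal numbers of strongest peaks in each list left 530 wild-type and 461 knockout peaks in short genes. Read depth was not recovered, and its part in which peaks have a partner was not tested.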

Other observations

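These 4 short genes, each with at least 3 peaks in 1 list, were picked after their values were seen. ZBTB39 and ZNF629, both zinc finger genes, had 4 wild-type peaks each on the strand of the gene and 0 knockout peaks. The folds were 6.54 to 9.19 in ZBTB39 and 2.79 to 6.49 in ZNF629. TNNI3, which encodes cardiac troponin I, had 0 wild-type and 3 knockout peaks on the strand of the gene, with folds of 6.67, 6.67 and 5.405. CIRBP, a cold-inducible RNA-binding protein gene, had 1 wild-type and 3 knockout peaks, all opposite to the gene. The wild-type peak, with a fold of 8.22, was shared with a knockout peak of 8.55.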
